A study of Mus musculus with 16 samples.

Results

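Imprinted genes, which are expressed from the chromosome of 1 parent and silenced on the other, were followed through all libraries of medullary thymic epithelial cells (mTEC) from mice lacking RBFOX1 or RBFOX2 in the thymic epithelium. The 36 genes examined were found in the count table by the Ensembl identifier of each symbol, as 36 of its 89407 rows. Of the 36, 13 are known as maternally expressed, 22 as paternally expressed, and Gnas gives transcripts from either parental chromosome depending on the promoter. Reads were counted per gene and not per parental allele, so the values are levels of RNA and do not show from which chromosome it came.

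Each of 8 mice gave 1 library of mature and 1 of immature mTEC, so that there were 16 libraries in all and 2 per group. Each group held a female and a male mouse, so that replicates also differ in sex. Rbfox1 tKO and Rbfox2 tKO mice were Rbfox1 lox/lox or Rbfox2 lox/lox and carried Foxn1 wildtype/cre, with Cre driven by the Foxn1 locus, which is active in thymic epithelium. Control mice of each line carried the same floxed alleles and Foxn1 wildtype/wildtype, so that Cre and the loss of the gene cannot be told apart. The mice are labelled C57BL/6 and aged 4 to 6 weeks, and by the study's methods the stock mixed 129S2/Sv with C57BL/6J in both lines. Populations of 10000 cells were sorted from single thymi as CD45-, EpCAM+, Ly51- and UEA+, with MHCII high for mature and MHCII low for immature mTEC.

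In mammals the parental chromosomes are marked by DNA methylation laid down in the germ line at control regions rich in CpG dinucleotides. Imprinted genes lie in clusters, in which a long noncoding RNA or an insulator often governs several neighbours, and many of them act on fetal growth, the placenta, metabolism or the brain. Several noncoding members, such as Airn and Kcnq1ot1, are known to silence neighbouring genes on the chromosome that transcribes them. Mature mTEC are known for promiscuous expression, the transcription of a great many genes otherwise restricted to peripheral tissues, which displays their products to developing T cells.

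Totals were 3737884 to 4636367 counts in mature and 1506134 to 2430287 counts in immature libraries. Aire was at 635 to 1573 CPM (counts scaled to library size with TMM factors) in mature and 19.5 to 297 CPM in immature mTEC, and Krt5 at 434 to 718 and 3193 to 4777 CPM, whereas Ccl21a had no count in any mature library. Rbfox2 stood at 9.49 to 37.5 CPM in Rbfox2 tKO libraries and 56.6 to 119 CPM in the other libraries. Rbfox1 stood at 29.7 and 33.9 CPM in mature mTEC of Rbfox1 tKO mice against 48.2 and 52.2 CPM in their controls, and at 151 and 152 against 159 and 163 CPM in immature mTEC. Reads from any part of a gene are counted, and exons that deletion leaves in place still give reads. The summed level of 8 fibroblast and mesenchyme markers was 481 to 822 CPM in mature and 367 to 2874 CPM in immature libraries, and that of 6 thymocyte and blood genes 45.3 to 57.9 and 3.42 to 23.2 CPM. None of the 8 or of the 6 genes was at 0 throughout either population. In bulk libraries, fewer cells of a type and less RNA per cell cannot be told apart.

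Stretches next to the start sites are shown for members at which the populations differed, with each CpG, the dinucleotide that carries the imprint, in capitals. Those of Dlk1 (chr12:109452723-109452822, + strand), Dio3 (chr12:110278980-110279067, +), Magel2 (chr7:62376879-62376978, +) and Plagl1 (chr10:13090591-13090690, +) belong to genes higher in mature mTEC, and those of Airn (chr17:12741211-12741310, +) and Kcnq1ot1 (chr7:143296550-143296649, - strand) to noncoding RNAs lower there. Each is read 5′ to 3′ along its gene. It ends at the last base before the RefSeq start, or before an exon annotated ahead of that start. The stretch between the divergent starts of Peg3 and Usp29 (chr7:6730432-6730577, + strand) is given for a pair that differed in direction. Sequences are from RefSeq, build GRCm38.p6.
Dlk1: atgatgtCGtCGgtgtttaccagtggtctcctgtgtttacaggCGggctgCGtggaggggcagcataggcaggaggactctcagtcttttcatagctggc
Dio3: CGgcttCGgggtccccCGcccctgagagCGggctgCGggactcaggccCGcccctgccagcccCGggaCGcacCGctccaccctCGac
Magel2: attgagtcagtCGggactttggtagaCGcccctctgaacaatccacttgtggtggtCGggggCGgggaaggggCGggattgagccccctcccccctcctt
Plagl1: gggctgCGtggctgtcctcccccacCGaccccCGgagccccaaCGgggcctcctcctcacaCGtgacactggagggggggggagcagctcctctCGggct
Airn: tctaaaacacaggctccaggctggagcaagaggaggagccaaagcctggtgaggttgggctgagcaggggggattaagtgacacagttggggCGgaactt
Kcnq1ot1: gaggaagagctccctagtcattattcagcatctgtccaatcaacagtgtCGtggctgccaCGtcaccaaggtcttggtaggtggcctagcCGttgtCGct
Peg3-Usp29: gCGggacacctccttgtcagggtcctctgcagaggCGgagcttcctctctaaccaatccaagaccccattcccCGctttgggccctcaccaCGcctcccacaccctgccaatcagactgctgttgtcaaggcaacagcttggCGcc

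CpG numbers in these stretches ran from 1 in Airn to 10 in the 88 bases of Dio3. RefSeq promoter windows, 250 bases before to 50 after a start, were found for 30 of the 36 genes. Their 46 windows held a median of 13.5 CpG (the letters CG, which read alike on both strands), against 7 in all 32851 windows. At least 50% G and C with an observed to expected CpG ratio of at least 0.6 was met by 47.8% of the windows of imprinted genes and by 33.5% of all windows. H19, the noncoding RNA whose level turned out to differ most between the lines in immature mTEC, holds the hairpin of a microRNA within its exons. Both mature arms are shown with the seed (bases 2 to 8) in capitals, and the libraries, made from poly(A) RNA, do not measure them.
mmu-miR-675-5p: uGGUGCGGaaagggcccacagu
mmu-miR-675-3p: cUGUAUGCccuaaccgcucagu

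More of the imprinted genes were detected in mature than in immature mTEC. In mature mTEC 29 of the 36 had a count in every library, and in immature mTEC 17 did. Immature libraries had lower totals, and their alignments had been reduced to a smaller number before counting. Levels are listed per kilobase of exon where genes are compared. Cdkn1c, which encodes the cell cycle inhibitor p57, was the highest in mature mTEC at 92.7 ± 18.3 CPM per kilobase (SD, n = 8), above Gnas, the gene of the stimulatory G protein alpha subunit, at 29.5 ± 2.92. Plagl1 at 23.5 ± 3.76 and H19 at 19.7 ± 3.57 CPM per kilobase came next, with overlapping ranges over the 8 libraries, followed by Igf2r at 14.2 ± 0.886. In immature mTEC the order was Gnas at 78.3 ± 10.5, Cdkn1c at 57.2 ± 13.6, Igf2r at 16.4 ± 1.75, Grb10 at 11.6 ± 1.88 and H19 at 11.4 ± 9.91 CPM per kilobase. The H19 mean stands for neither line, since its level was 1.74 to 3.38 CPM per kilobase in the Rbfox1 line and 16.7 to 26.0 in the Rbfox2 line, which set its place in the order. By the longest transcript in place of all exons Gnas, whose many exons are used by different transcripts, came to 83.6 in mature and 222 CPM per kilobase in immature mTEC.

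**Figure D1:**
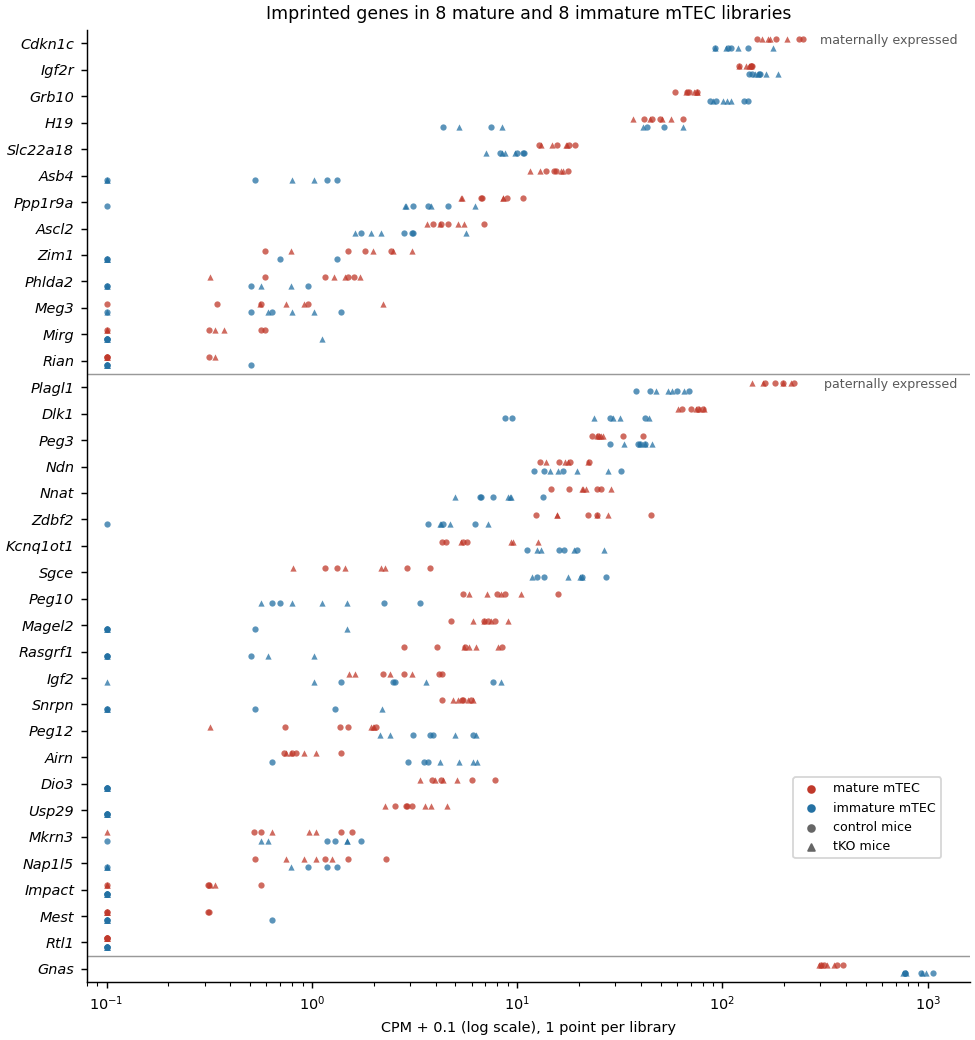
Level of each of the 36 imprinted genes in each library, as CPM + 0.1 on a log axis, with mature mTEC in red, immature mTEC in blue, control mice as circles and tKO mice as triangles. Genes are grouped as maternally expressed, paternally expressed and Gnas, and Dio3, Usp29, Impact and Rtl1 show every immature library at the left edge, where the count is 0.

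At the bottom of the range Rtl1, a retrotransposon-derived gene, had no count in any of the 16 libraries, which allows at most 0.0600 CPM (3 counts over all libraries). Mest, Impact, Rian and Mirg never exceeded 2 counts, and Meg3 never exceeded 9. Phlda2 (0 to 7 counts), Nap1l5 (0 to 9), Mkrn3 (0 to 6) and Zim1 (0 to 11) were also low in all libraries. The limit covers counting error only. Over all mice, Zim1 had 60 counts in mature against 4 in immature mTEC, a ratio of 6.64 (95% counting interval 2.46 to 25.1) after scaling for library size, and Phlda2 38 against 5, a ratio of 3.36 (95% counting interval 1.32 to 10.9). Each was higher in the mature library of 7 of 8 mice, and neither was tested between the populations. Zim1 was tested within mature mTEC alone, without a call, and the others of these 10 genes passed the filter on low counts in no comparison.

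Mature and immature mTEC were compared first, within the 4 control mice and, in separate libraries, within the 4 tKO mice. In control mice 25 of the 36 imprinted genes could be tested, and 17 were called (adjusted p under 0.05 and more than 2-fold), 12 of them higher and 5 lower in mature mTEC. Of all 16750 rows tested 37.8% were called, 26.8% higher and 11.1% lower. In tKO mice 16 of 25 were called, 12 higher and 4 lower, against 38.1% of all rows, 26.3% higher and 11.9% lower. Genes scarce in 1 population could pass the filter through the other alone, which fixes the direction for those that did. With at least 10 counts required in every library, 6 members were called in control mice (4 higher, 2 lower) and 5 in tKO mice (4 higher, 1 lower), the latter including Slc22a18, which is not among the 16. The 2 sets of mice shared 15 called genes, 88.2% of those in control and 93.8% of those in tKO mice, all in the same direction, whereas over all rows the shares were 86.2% and 86.4%. The median log2 fold change of the tested members was 0.89 in control and 0.90 in tKO mice, against 0.049 and 0.067 over all rows tested.

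Paternally expressed genes made up most of the calls. Of 16 tested in each set of mice, 13 were called, 9 higher and 4 lower in control and 10 higher and 3 lower in tKO mice. Of 8 maternally expressed genes tested, 3 were called in control and 2 in tKO mice, all higher in mature mTEC. Median log2 fold changes were 1.51 and 1.6 for paternally expressed and 0.87 and 0.86 for maternally expressed genes, in control and tKO mice. Over all rows 37.8% were called in control and 38.1% in tKO mice. Of the called genes, Dio3, Magel2, Peg10, Rasgrf1, Snrpn and, in tKO mice, Usp29 passed the filter through mature mTEC alone. So did the maternally expressed Asb4 and, though not called here, Ascl2. Sgce, Airn and Peg12, all called lower, passed it through immature mTEC alone. The direction of all these genes was thus fixed. With at least 10 counts in every library, the paternally expressed genes called were Dlk1, Kcnq1ot1, Nnat and Plagl1 in control mice. In tKO mice they were Dlk1 and Plagl1. The maternally expressed were H19 in control and H19 and Slc22a18 in tKO mice. The difference between the parental classes was not tested. In the lists of values that follow, the first pair are replicates 2 and 3 of the Rbfox1 line and the second pair replicates 1 and 2 of the Rbfox2 line.

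**Figure D2:**
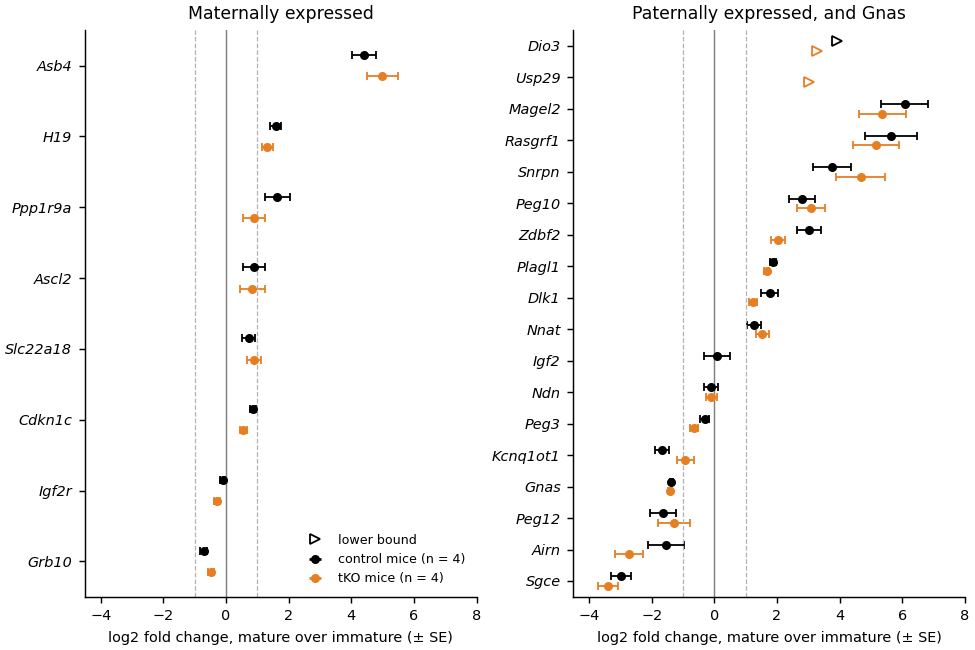
Log2 fold change of mature over immature mTEC with its SE for each imprinted gene tested, in 4 control mice (black) and 4 tKO mice (orange), with maternally expressed genes on the left. Dashed lines mark 2-fold, open triangles are lower bounds for genes with no count in immature mTEC, and Asb4, Magel2 and Rasgrf1 stand far to the right whereas Sgce, Airn, Peg12, Gnas and Kcnq1ot1 stand to the left.

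The Dlk1-Dio3 cluster on chromosome 12 showed its coding, paternally expressed ends in mature mTEC and almost none of its maternally expressed noncoding RNAs. Dlk1 (chr12:109452823-109463336) encodes a transmembrane protein of the Delta and Notch family that restrains adipocyte differentiation. Dlk1 was at 63.6, 80.7, 70.0 and 75.8 CPM in mature mTEC of control mice and at 80.8, 76.5, 60.7 and 74.5 CPM in those of tKO mice, and at 41.9, 9.36, 8.65 and 28.1 and 23.6, 29, 43.8 and 31.7 CPM in immature mTEC. Every mature library lay above every immature one, although the immature libraries spread widely. Dlk1 was higher in mature mTEC by a log2 fold change of 1.76 ± 0.269 (SE, edgeR adjusted p = 1.37e-05) in control and 1.23 ± 0.122 (adjusted p = 8.26e-09) in tKO mice. Without Rbfox1 control immature replicate 2 the value in control mice was 2.47. Dio3 (chr12:110279068-110281097), the deiodinase that inactivates thyroid hormone, had 28, 36, 16 and 17 counts in mature mTEC of control mice and 23, 18, 12 and 17 in those of tKO mice, and none in any immature library. Set against 3 counts over all 8 immature libraries, it was at least 24.6-fold higher in mature mTEC (edgeR adjusted p = 3.11e-06 in control and 1.05e-05 in tKO mice). Meg3 had 0, 4, 2 and 1 counts in mature mTEC of control mice and 3, 9, 3 and 2 in those of tKO mice, and 3, 1, 1 and 0 and 2, 1, 1 and 0 counts in immature mTEC. Meg3, a noncoding RNA transcribed from the maternal chromosome, was thus near the limit of detection in both populations, where Dlk1 from the same cluster was among the abundant members.

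In the Peg10 cluster on chromosome 6, neighbours moved in opposite directions. Peg10 (chr6:4747306-4760517, + strand), a retrotransposon-derived gene needed for the placenta, and Sgce (chr6:4674350-4747207, - strand), which encodes epsilon-sarcoglycan, are both paternally expressed and start 99 bases apart. Peg10 had 41, 73, 23 and 32 counts in mature mTEC of control mice and 38, 44, 26 and 25 in those of tKO mice, and 5, 8, 1 and 1 and 1, 2, 1 and 2 counts in immature mTEC. Sgce gave 5, 17, 12 and 5 counts in mature mTEC of control mice and 10, 3, 5 and 9 in those of tKO mice, and 29, 33, 38 and 45 and 38, 23, 29 and 30 counts in immature mTEC. All 8 mature libraries lay above the immature ones for Peg10 and below them for Sgce, when scaled to CPM. Peg10 passed the filter through mature and Sgce through immature mTEC alone, so that the direction of each test was fixed. Neither gene had 10 counts in every library. The log2 fold change of Peg10 was 2.80 ± 0.429 (SE, edgeR adjusted p = 1.42e-05) in control and 3.09 ± 0.44 (adjusted p = 1.91e-06) in tKO mice. That of Sgce was -2.98 ± 0.308 (SE, edgeR adjusted p = 1.09e-07) in control and -3.40 ± 0.308 (adjusted p = 1.76e-09) in tKO mice. Of the maternally expressed genes further along, Asb4 (chr6:5383386-5433022), a subunit of ubiquitin ligases with ankyrin repeats, was the member of its class with the largest difference. Asb4 had 65, 82, 66 and 61 counts in mature mTEC of control mice and 59, 69, 61 and 50 in those of tKO mice, and 1, 3, 2 and 0 and 2, 0, 1 and 0 counts in immature mTEC. The log2 fold change of Asb4 was 4.41 ± 0.389 (SE, edgeR adjusted p = 1.27e-08) in control and 4.99 ± 0.491 (adjusted p = 6.83e-09) in tKO mice, and with 9 counts in all immature libraries the pooled ratio was 25.2 (95% counting interval 13.2 to 55.5). The value rose to 6.44 without Rbfox2 control immature replicate 1, and in tKO mice to 6.84 and 6.64 without Rbfox1 tKO immature replicate 2 or Rbfox2 tKO immature replicate 1. Ppp1r9a (chr6:4902917-5165661), which encodes the actin-binding neurabin, was higher in the mature library of every mouse. Ppp1r9a had 50, 41, 28 and 27 counts in mature mTEC of control mice and 24, 36, 31 and 23 in those of tKO mice, and 7, 11, 0 and 6 and 8, 12, 4 and 4 counts in immature mTEC. It passed the fold threshold in control mice, with 1.64 ± 0.395 (SE, edgeR adjusted p = 0.00126), and not in tKO mice, with 0.89 ± 0.353 (SE, edgeR adjusted p = 0.0301). In control mice the value was 4.44 without Rbfox2 control immature replicate 2, which left a library with no count on its own.

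At the Peg3 domain on chromosome 7 the divergent pair Peg3 (chr7:6703892-6730431, - strand) and Usp29 (chr7:6730578-6967219, + strand) behaved differently. Usp29, which encodes a ubiquitin-specific protease, had 14, 13, 12 and 10 counts in mature mTEC of control mice, 17, 19, 8 and 15 in those of tKO mice, and none in any immature library. Against 3 counts over the 8 immature libraries this was at least 15.9-fold higher in mature mTEC, and it was tested and called in tKO mice (edgeR adjusted p = 4.18e-05). In control mice Usp29 did not pass the filter on low counts. Peg3, a zinc finger protein gene, stood at 23.1 to 40.9 CPM in mature and 28.1 to 45.3 CPM in immature mTEC, with overlapping ranges. Its log2 fold change was -0.31 ± 0.135 (SE, edgeR adjusted p = 0.0463) in control and -0.65 ± 0.131 (adjusted p = 1.56e-04) in tKO mice, past the p threshold and short of 2-fold in each.

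Among the genes of the Prader-Willi region on chromosome 7, all paternally expressed, Snrpn and Magel2 had at most 3 counts in any immature library and were higher in mature mTEC, whereas Ndn passed no test and Peg12 was lower. Magel2 (chr7:62377010-62381640) encodes a MAGE family protein that acts with ubiquitin ligases. Magel2 had 32, 36, 20 and 29 counts in mature mTEC of control mice and 41, 29, 22 and 32 in those of tKO mice, and 1, 0, 0 and 0 and 3, 0, 0 and 0 counts in immature mTEC. No mature library overlapped an immature one. Its pooled ratio was 26.7 (95% counting interval 10.3 to 98.6), and edgeR gave an adjusted p of 1.49e-06 in control and 1.91e-06 in tKO mice, with log2 fold changes of 6.08 ± 0.748 and 5.36 ± 0.75 (SE). Snrpn had 25, 25, 18 and 24 counts in mature mTEC of control mice and 22, 24, 22 and 22 in those of tKO mice, and 1, 0, 0 and 2 and 0, 0, 3 and 0 counts in immature mTEC. Snrpn (chr7:59982495-60140219) encodes the spliceosomal protein SmN and shares 27.3% of its exon bases with Gm38393 on the same strand. It was higher in mature mTEC by 3.75 ± 0.608 (SE, edgeR adjusted p = 2.69e-05) in control and 4.67 ± 0.783 (adjusted p = 2.03e-05) in tKO mice, with a pooled ratio of 13.4 (95% counting interval 6.05 to 37.1). With so few immature counts single libraries moved the fitted values. Without Rbfox1 control immature replicate 2, Magel2 came to 7.47 and Snrpn to 5.12 in control mice. Snrpn came to 5.79 without Rbfox2 control immature replicate 2 and, in tKO mice, to 7.11 without Rbfox2 tKO immature replicate 1, and Magel2 to 7.51 without Rbfox1 tKO immature replicate 2. With the mouse as a block, Snrpn and Magel2 in tKO mice were at 3.53 and 4.04, and Magel2 in control mice at 5.40.

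Ndn, or necdin, another MAGE family gene of the region, was at 12.8 to 22.4 CPM in mature and 11.9 to 31.9 CPM in immature mTEC. Its log2 fold changes of -0.10 ± 0.221 and -0.09 ± 0.177 (SE) did not pass the test in control or tKO mice (edgeR adjusted p = 0.69 and 0.656). Peg12 (chr7:62461871-62464510), which encodes a binding partner of the kinase GSK3, went the other way at low counts. It passed the filter through immature mTEC alone, which fixed its direction. Peg12 had 6, 3, 6 and 8 counts in mature mTEC of control mice and 1, 8, 7 and 8 in those of tKO mice, and 7, 9, 7 and 10 and 5, 4, 7 and 9 counts in immature mTEC. In CPM all mature libraries lay below all immature ones, with a log2 fold change of -1.64 ± 0.424 (SE, edgeR adjusted p = 0.00226) in control and -1.30 ± 0.517 (adjusted p = 0.031) in tKO mice. The call in tKO mice was lost, with values of -1.34 to -0.87, without Rbfox1 tKO mature replicate 2, either Rbfox1 tKO immature library, either Rbfox2 tKO mature library or Rbfox2 tKO immature replicate 2, and it was -2.29 without Rbfox1 tKO mature replicate 3.

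The long noncoding RNAs Airn and Kcnq1ot1, both antisense to a neighbour and paternally transcribed, were lower in mature mTEC. Airn had 3, 6, 3 and 3 counts in mature mTEC of control mice and 3, 4, 3 and 3 in those of tKO mice, and 8, 7, 1 and 6 and 13, 10, 9 and 6 counts in immature mTEC. Airn (chr17:12741311-12860136) was thus scarce throughout and passed the filter through immature mTEC alone, which fixed its direction. Part of it lies across the abundant Igf2r on the other strand, without a shared exon base, and since it is not given whether reads were counted by strand, reads of unspliced Igf2r RNA there cannot be told apart from its own. Its log2 fold change was -1.55 ± 0.582 (SE, edgeR adjusted p = 0.0248) in control and -2.73 ± 0.458 (adjusted p = 1.69e-05) in tKO mice. The call in control mice was lost without Rbfox1 control immature replicate 2 (edgeR adjusted p = 0.0612) or Rbfox2 control immature replicate 2, when the value was -0.65 (edgeR adjusted p = 0.584). Over all alternatives its adjusted p by edgeR or DESeq2 ran from 0.00768 to 0.584. Igf2r (chr17:12682406-12769664), the maternally expressed receptor that takes IGF2 to the lysosome and the gene Airn is known to silence, was among the abundant members. Igf2r stood at 140.0, 138, 119.7 and 138 CPM in mature mTEC of control mice and at 138, 135, 130.4 and 120.2 CPM in those of tKO mice, and at 139, 135, 152 and 151 and 149, 163, 187 and 145 CPM in immature mTEC. Its log2 fold change, -0.11 ± 0.0733 (SE, edgeR adjusted p = 0.206) in control and -0.29 ± 0.085 (adjusted p = 0.00479) in tKO mice, was short of 2-fold in both.

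Kcnq1ot1 had 20, 26, 23 and 18 counts in mature mTEC of control mice and 24, 53, 34 and 41 in those of tKO mice, and 26, 39, 36 and 28 and 28, 52, 27 and 18 counts in immature mTEC. Kcnq1ot1 (chr7:143203458-143296549) is annotated as a single exon of 93092 bases, and by the same limit reads of genes on the other strand cannot be told apart from its own. It was lower in mature mTEC in every mouse, at a log2 fold change of -1.67 ± 0.225 (SE, edgeR adjusted p = 3.03e-06) in control mice, and did not pass the fold threshold in tKO mice, with -0.93 ± 0.271 (SE, edgeR adjusted p = 0.00422). Cdkn1c and Slc22a18, maternally expressed genes of the same cluster, were higher in mature mTEC and did not reach 2-fold. Cdkn1c stood at 183, 147, 248 and 236 CPM in mature mTEC of control mice and at 167, 170.2, 156 and 206 CPM in those of tKO mice, and at 91.4, 110.3, 106 and 134 and 91.5, 104, 176 and 119 CPM in immature mTEC. Cdkn1c (chr7:143458339-143461050), which shares 30.7% of its exon bases with the antisense gene Gm44732, differed by 0.86 ± 0.0925 (SE, edgeR adjusted p = 1.88e-07) in control and 0.55 ± 0.107 (adjusted p = 9.29e-05) in tKO mice. Slc22a18, a transporter gene, was higher in the mature library of all 8 mice, by 0.73 ± 0.204 (SE, edgeR adjusted p = 0.00415) in control and 0.90 ± 0.219 (adjusted p = 9.67e-04) in tKO mice. Ascl2, a basic helix-loop-helix factor, had 18, 21, 29 and 17 counts in mature mTEC of control and 19, 23, 13 and 22 in those of tKO mice, against 7, 4, 5 and 5 and 4, 3, 8 and 3 in immature mTEC. Its log2 fold changes were 0.89 ± 0.364 and 0.84 ± 0.403 (SE, edgeR adjusted p = 0.0376 and 0.0718).

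Plagl1 (chr10:13060504-13131694), a zinc finger transcription factor that arrests the cell cycle, was the abundant paternally expressed gene with the clearest difference. Plagl1 stood at 222, 197, 180.1 and 161 CPM in mature mTEC of control mice and at 216, 198, 158 and 139 CPM in those of tKO mice, and at 60.2, 68.8, 37.8 and 44.2 and 65.1, 56.6, 47.3 and 54.4 CPM in immature mTEC. The mature libraries lay well above the immature ones, with a log2 fold change of 1.88 ± 0.0907 (SE, edgeR adjusted p = 2.68e-12) in control and 1.66 ± 0.0941 (adjusted p = 4.27e-13) in tKO mice. Zdbf2 (chr1:63273265-63314576), known for its part in growth after birth through the brain, followed. Zdbf2 lay at 24.5, 44.8, 21.9 and 12.3 CPM in mature mTEC of control mice and at 27.6, 24.5, 15.5 and 15.6 CPM in those of tKO mice, and at 4.27, 6.11, 0 and 3.58 and 4.62, 7.13, 4.17 and 4.13 CPM in immature mTEC. It was higher in mature mTEC of each mouse, by 3.01 ± 0.386 (SE, edgeR adjusted p = 1.71e-06) in control and 2.03 ± 0.227 (adjusted p = 5.22e-08) in tKO mice, and by 5.81 in control mice without Rbfox2 control immature replicate 2. Nnat (chr2:157560078-157562522), or neuronatin, a membrane protein of neurons and endocrine cells, was also higher. Nnat stood at 14.6, 17.8, 25.4 and 24.3 CPM in mature mTEC of control mice and at 20.6, 21.7, 20.9 and 28.4 CPM in those of tKO mice, and at 13.2, 6.51, 7.57 and 6.57 and 9.24, 9.17, 4.87 and 8.95 CPM in immature mTEC. The log2 fold change of Nnat was 1.26 ± 0.214 (SE, edgeR adjusted p = 4.46e-05) in control and 1.53 ± 0.21 (adjusted p = 1.14e-06) in tKO mice.

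Rasgrf1 (chr9:89909908-90026977), a Ras exchange factor of neurons, was close to absent from immature mTEC. Rasgrf1 had 26, 39, 17 and 11 counts in mature mTEC of control mice and 25, 34, 21 and 27 in those of tKO mice, and 0, 1, 0 and 0 and 2, 1, 0 and 0 counts in immature mTEC. With 4 counts in all immature libraries its pooled ratio was 22.1 (95% counting interval 8.51 to 82), and edgeR gave log2 fold changes of 5.64 ± 0.839 and 5.16 ± 0.732 (SE, adjusted p = 1.31e-05 and 2.35e-06) in control and tKO mice. The fitted value depended on those few counts. It was 7.03 in control mice without Rbfox1 control immature replicate 3, and 3.80 in tKO mice with the mouse as a block. Gnas (chr2:174284320-174346744) and Grb10 (chr11:11930508-12038683), in contrast, were lower in mature mTEC of all 8 mice. Gnas stood at 314, 304, 387 and 362 CPM in mature mTEC of control mice and at 297, 303, 324 and 350.5 CPM in those of tKO mice, and at 776, 772, 1066 and 926 and 788, 758, 982 and 937 CPM in immature mTEC. The log2 fold change of Gnas was -1.37 ± 0.0612 (SE, edgeR adjusted p = 9.32e-13) in control and -1.43 ± 0.066 (adjusted p = 1.28e-14) in tKO mice. Grb10 stood at 68.6, 58.9, 66.7 and 74.8 CPM in mature mTEC of control mice and at 66, 75.1, 74.8 and 72.3 CPM in those of tKO mice, and at 127, 93.2, 133 and 86.6 and 101, 105, 111 and 89.5 CPM in immature mTEC. Grb10, an adaptor that dampens insulin and IGF receptor signalling, differed by -0.72 ± 0.12 (SE, edgeR adjusted p = 3.88e-05) in control and -0.48 ± 0.0913 (adjusted p = 6.88e-05) in tKO mice, short of 2-fold.

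The change from immature to mature mTEC was next compared between genotypes, by the adjusted p alone. None of the 26 members tested over all 16 libraries differed between tKO and control mice (edgeR, 0 at an unadjusted p under 0.05 and 0 by DESeq2), and none of all 17442 rows did (0%). Log2 fold changes of the difference ran from -1.20 to 0.95. Markers of other cells differed between the populations. In control mice 26.8% of all rows were higher and 11.1% lower in mature mTEC. Of the 8 fibroblast and mesenchyme markers, 5 were lower and 2 higher there. Of 4 endothelial markers tested 3 were lower, and 3 of 3 thymocyte and blood genes tested were higher. Their part in the values of imprinted genes was not tested.

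Further imprinted genes outside the 36 were examined as a list of 40. Of 32 tested in control mice, 12 were higher and 5 lower in mature mTEC, where 26.8% of all rows were higher and 11.1% lower. Of 30 tested in tKO mice 10 were higher and 7 lower, against 26.3% and 11.9% of all rows. The median log2 fold change was 0.13 in control and -0.09 in tKO mice, so its sign differed. The 5 with the largest values in control mice were Calcr, the calcitonin receptor, at 8.15 ± 0.627 (SE), Kcnk9, a potassium channel, at 5.77 ± 0.612, Th, tyrosine hydroxylase, at 5.52 ± 0.411, Gatm, of creatine synthesis, at 5.41 ± 0.293, and Ins2, insulin, at 4.81 ± 0.541. None of the 5 exceeded 7 counts in an immature library, so that these fitted values depend on few counts.

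Of 22 factors that set, keep or erase imprints, all tested, 3 were higher in mature mTEC of control mice and none was lower, a smaller share than the 37.8% of all rows called. These were Dppa3, which protects methylation in the early embryo, at 4.95 ± 0.273 (SE), Dnmt3l, the cofactor of germ line DNA methylation, at 4.07 ± 0.228, and the methylcytosine dioxygenase Tet2 at 1.22 ± 0.133. In tKO mice 5 were higher and 1 lower, with Dppa3 at 7.91 ± 0.629, Dnmt3l at 5.96 ± 0.243, Dnmt3b at 1.38 ± 0.328, Tet2 at 1.28 ± 0.14 and Zfp57, the zinc finger protein that guards imprints, at -1.84 ± 0.508. Dppa3 had no count in immature mTEC of Rbfox2 tKO mice, so that its fitted value in tKO mice depends on edgeR's prior. The maintenance methyltransferase Dnmt1 and Trim28 did not reach 2-fold, at -0.55 ± 0.0742 and -0.39 ± 0.0608 in control mice.

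Of 14 genes of the IGF pathway, in which Igf2, Igf2r and Grb10 act, 5 were higher and 5 lower in mature mTEC of control and likewise of tKO mice, where 37.8% and 38.1% of all rows were called. In control mice the RNA-binding protein genes Igf2bp3 and Igf2bp1 were at 5.86 ± 0.665 and 4.26 ± 0.518 (SE), Igfbp6 at 4.60 ± 0.213, and Igfbp5 and Igfbp4, whose products bind IGFs outside the cell, at -3.73 ± 0.108 and -3.66 ± 0.108. Igf2bp1 and Igf2bp3 had at most 1 and 3 counts in an immature library. In tKO mice the same genes had 5.09 ± 0.672, 6.10 ± 0.776, 4.84 ± 0.229, -3.92 ± 0.115 and -3.83 ± 0.0955.

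Whether loss of an RBFOX factor changed the level of an imprinted gene was then tested within each population. No member was called in any of these comparisons. In mature mTEC, with 25 members tested, the background was 0.0166% of rows for Rbfox1 tKO and 0.0277% for Rbfox2 tKO mice, and 0.0166% with both lines together. In immature mTEC, with 17 tested, it was 0.0306%, 0.0536% and 0.0306%. Members at an unadjusted p under 0.05 by edgeR numbered 2 for Rbfox1 and 3 for Rbfox2 in mature mTEC, 0 and 0 in immature mTEC, and 1 in each population with both lines together, and DESeq2 called none. Log2 fold changes of tKO over control ran from -1.06 to 0.84 and -0.42 to 0.92 in mature and from -1.82 to 0.82 and -0.20 to 1.37 in immature mTEC. With 2 mice a group these ranges are wide for the scarce genes, and a gene that missed the threshold is not shown to be equal.

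Kcnq1ot1 was the 1 member at an unadjusted p under 0.05 in mature mTEC of both lines together, at a log2 fold change of 0.88 ± 0.247 (SE, edgeR adjusted p = 0.762), with 24, 53, 34 and 41 counts in tKO against 20, 26, 23 and 18 in control mice, and the ranges overlapped. It was 0.84 in the Rbfox1 and 0.92 in the Rbfox2 line. Airn, the other long antisense RNA, reached 1.03 ± 0.436 (SE, edgeR adjusted p = 0.624) in immature mTEC of both lines together. That value rests on few counts, 13, 10, 9 and 6 in tKO against 8, 7, 1 and 6 in control mice. Airn passed the filter there through tKO libraries alone, which fixed its direction. Peg3 was at -0.54 ± 0.157 (SE, edgeR adjusted p = 1) in mature mTEC of Rbfox1 tKO mice, and Cdkn1c and Rasgrf1 were at -0.42 ± 0.118 (SE, edgeR adjusted p = 0.504) and 0.82 ± 0.377 (SE, edgeR adjusted p = 0.915) in those of Rbfox2 tKO mice. None passed the correction for all rows, and none of the members differed between the Rbfox1 and Rbfox2 effects, against 0.00555% of rows in mature and 0.00766% in immature mTEC. At an unadjusted p under 0.05 edgeR gave 2 and 0 members there, and DESeq2 called none.

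**Figure D3:**
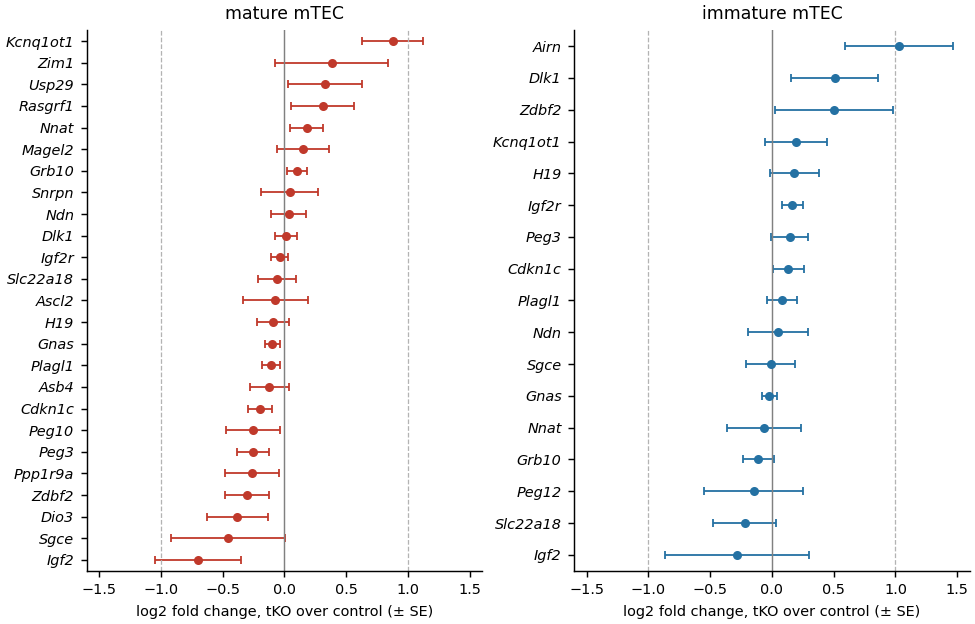
Log2 fold change of tKO over control mice with its SE for each imprinted gene tested, both lines together (4 tKO and 4 control mice), in mature mTEC (25 genes, left) and immature mTEC (17 genes, right). Dashed lines mark 2-fold, and Kcnq1ot1 and Airn head the panels at 0.88 and 1.03 without passing the correction for all rows.

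H19 and, less firmly, Igf2 were lower in immature mTEC of the Rbfox1 line than of the Rbfox2 line when the 4 mice of each line were compared. H19 (chr7:142575529-142578143) is a maternally expressed noncoding RNA, and Igf2 (chr7:142650766-142666816) the paternally expressed fetal growth factor on the same chromosome. In immature mTEC, listed as 2 control and then 2 tKO mice, H19 was at 4.27, 7.33, 8.32 and 5.1 CPM in the Rbfox1 line and at 42.7, 52, 41 and 64 CPM in the Rbfox2 line. No library of the Rbfox1 line reached the lowest of the Rbfox2 line, and within a line the tKO and control ranges overlapped or adjoined. In mature mTEC the same mice had 64.4, 41.5, 56.2 and 36.5 CPM in the Rbfox1 and 45.3, 49.3, 44.2 and 50.7 CPM in the Rbfox2 line, with overlapping ranges. Igf2 had 3, 6, 2 and 0 counts in immature mTEC of the Rbfox1 and 14, 4, 5 and 12 of the Rbfox2 line, and 10, 19, 7 and 6 and 18, 11, 11 and 10 counts in mature mTEC. In immature mTEC the Igf2 ranges of the lines overlapped in CPM, through control mice, and the lines were not tested within a genotype. There Igf2 passed the filter on low counts through the Rbfox2 line alone, which fixed its direction between the lines. Igf2 shares 62.8% of its exon bases with Gm49394 on the same strand, and the authors' counting could split or drop reads there.

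With all 4 mice of each line compared, 2 of 17 members were called in immature mTEC, against 5.0% of rows (3.08% higher and 1.92% lower in the Rbfox1 line). The log2 fold change of the Rbfox1 over the Rbfox2 line was -2.97 ± 0.212 (SE, edgeR adjusted p = 2.32e-08) for H19 and -2.10 ± 0.6 (SE, edgeR adjusted p = 0.0164) for Igf2. The call of Igf2 was lost without Rbfox2 control immature replicate 1 (edgeR adjusted p = 0.0889) or Rbfox2 tKO immature replicate 2 (adjusted p = 0.0822), with a range of 1.67e-04 to 0.0889 over all alternatives by edgeR or DESeq2, and the value was -2.71 without Rbfox1 control immature replicate 3. The call of H19 held without any one library. In mature mTEC no member of 25 was called, against 1.05% of rows (10 at an unadjusted p under 0.05 by edgeR, none called by DESeq2), and H19 differed by 0.07 ± 0.131 (SE, edgeR adjusted p = 0.796).

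Markers of other cells moved with the line in the same libraries. All 8 fibroblast and mesenchyme markers were called lower in immature mTEC of the Rbfox1 line, with a median log2 fold change of -2.07, and their summed level was 367 to 732 CPM there against 1908 to 2874 CPM in the Rbfox2 line. None of the 8 was at 0. Of 5 endothelial markers 3 were lower, with summed levels of 27.8 to 72.5 and 69.3 to 221 CPM. Among all rows 1.92% were lower. In mature mTEC none of the 8 was called, and the sums were 481 to 659 and 618 to 822 CPM. The summed level of 4 tuft-like mTEC genes was 384 to 619 CPM in immature mTEC of the Rbfox1 and 644 to 748 CPM of the Rbfox2 line, with none of the 4 called. That of the 22 imprint factors was 1898 to 2167 and 1516 to 1627 CPM, with 1 of 19 tested called, Hells, a chromatin remodeller that aids DNA methylation, at 1.19 ± 0.135 (SE). The part of these cells and factors in the level of H19 or Igf2 was not tested. The lines differ in their floxed gene and in their mice, and the labels tie no library to a sort or sequencing batch, so that line and batch cannot be told apart.

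**Figure D4:**
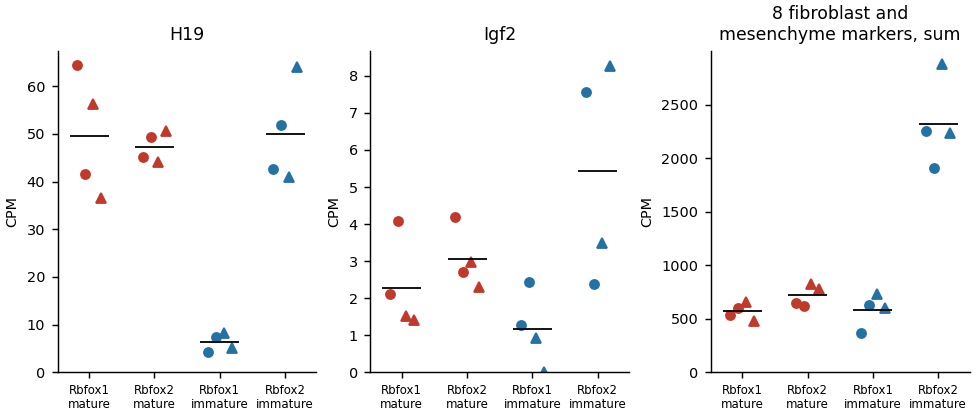
H19, Igf2 and the sum of 8 fibroblast and mesenchyme markers in CPM for each library, by line and population, with control mice as circles, tKO mice as triangles and the mean of 4 libraries as a bar. In immature mTEC the 4 libraries of the Rbfox1 line lie below those of the Rbfox2 line for H19 and for the marker sum, whereas mature mTEC of the lines overlap for H19.

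The change of H19 with maturation differed between the lines. Averaged over both lines it was called in control mice, at 1.59 ± 0.182 (SE, edgeR adjusted p = 4.05e-07), and in tKO mice, at 1.32 ± 0.191 (SE, edgeR adjusted p = 2.34e-06), where a block for the mouse took it to 0.92 (edgeR adjusted p = 0.0473, the highest of a range from 1.78e-16 over all alternatives by edgeR or DESeq2), short of 2-fold. Within the Rbfox1 line the value was 2.96 ± 0.234 (SE, edgeR adjusted p = 1.71e-09), and within the Rbfox2 line -0.06 ± 0.128 (SE, edgeR adjusted p = 0.678). The difference between the lines was 3.04 ± 0.296 (SE, edgeR adjusted p = 5.92e-07), and H19 was the 1 member of 26 called in that test by adjusted p, against 4.75% of rows. Igf2 was at 0.08 ± 0.423 (SE, edgeR adjusted p = 0.879) for maturation in control mice and its difference between the lines at 1.97 ± 0.746 (SE, edgeR adjusted p = 0.149). All 8 fibroblast and mesenchyme markers, 2 of 5 endothelial markers and none of 4 tuft-like mTEC genes also passed in that test. So did 5 of 22 imprint factors (Uhrf1, Trim28, Dnmt3l, Ezh2 and Hells), and each of these 5 factors had a lower value in the Rbfox1 line. Of 24 members tested in the Rbfox1 line 16 were called, 12 higher and 4 lower (37.5% of rows), and of 25 in the Rbfox2 line 16, 11 higher and 5 lower (39.0%). Ascl2 was called within the Rbfox1 line, at 1.14 ± 0.375 (SE, edgeR adjusted p = 0.0111), and not without Rbfox1 control immature replicate 3, at 0.95. There Ascl2 passed the filter through mature mTEC alone, which fixed its direction. Airn was called in both lines, at -2.23 ± 0.441 (SE, edgeR adjusted p = 1.90e-04) and -2.07 ± 0.602 (SE, edgeR adjusted p = 0.00535), and not in the Rbfox2 line without Rbfox2 control immature replicate 2, at -1.17. In both lines it passed the filter through immature mTEC alone.

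Smaller differences between the lines were also measured. In mature mTEC Zdbf2, at 0.88 ± 0.179 (SE, edgeR adjusted p = 0.00225), Peg10, at 0.72 ± 0.219 (SE, edgeR adjusted p = 0.033), and Plagl1, at 0.38 ± 0.0726 (SE, edgeR adjusted p = 0.00133), passed the p threshold without the fold threshold and were higher in the Rbfox1 line. Ndn at -0.44, Nnat at -0.43, Cdkn1c at -0.34 and Gnas at -0.23 did so in the other direction. The 4 mature libraries of the Rbfox1 line held 24.5 to 44.8 CPM of Zdbf2 against 12.3 to 21.9 CPM in the Rbfox2 line, and Zdbf2 passed the fold threshold when Rbfox1 control mature replicate 2 or Rbfox2 control mature replicate 1 was left out. In immature mTEC Plagl1 was at 0.47 ± 0.124 (SE, edgeR adjusted p = 0.0103), and Sgce, Cdkn1c and Gnas at -0.68, -0.41 and -0.34, again without reaching 2-fold. Gnas, Plagl1 and Zdbf2 kept their order between the lines in both populations, with no overlap of the 4 libraries of each line. For Zdbf2 in immature mTEC the ranges nearly met, at 4.27 to 7.13 against 0 to 4.17 CPM. The share of all rows that behaved in this way was not counted.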

How the data were processed

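RNA was measured in 16 libraries of sorted mTEC, made from poly(A) RNA with a stranded kit and sequenced as paired ends. The authors deposited raw counts per gene. HISAT2 2.1.0, featureCounts 1.6.0, Picard 2.10.9 and the build mm10 are named in the submitters' processing notes, and the column names give 14500000 (mature) and 10000000 (immature) as the number to which alignments were reduced. No source used here says whether counting used strand. Identifiers were matched to symbols with GENCODE M21, which also gave gene positions and exon lengths.

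Tests used edgeR 4.0.16 in R 4.3.3 on the counts as deposited, with TMM factors and the quasi-likelihood test, on rows kept by filterByExpr (min.count 10), with Benjamini-Hochberg adjustment over all rows kept. A gene was called at an adjusted p under 0.05 and over 2-fold, and a difference of effects at the adjusted p alone. Standard errors were derived from the F statistic. CPM used TMM factors over all 16 libraries, and log2 fold changes of genes with few counts depend on edgeR's prior. Maturation was fitted over the 8 libraries of a genotype, and tKO, line and their difference over the 8 of a population. Pandas 2.3.3 and numpy 2.4.6 in Python 3.11.15 served for tabulation. The fits were tested on simulated data. Totals of 1506134 to 4636367 counts set the precision, and counting intervals cover counting error only.

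The 36 genes and all lists were chosen with earlier results of these data known. Every member called in any comparison, the 5 highest per kilobase in a population, and the partners in H19-Igf2, Igf2r-Airn and Dlk1-Meg3 are given in every library, and at most 5 called genes of each further list are named. Comparisons within a line were added after the data were seen. Replicates are single mice, a female and a male in each group, and their counts differed by a chi-square of 1.78 to 2.74 per degree of freedom. Mature and immature libraries of a mouse pair by the labels, with correlations of 0.0885 to 0.164 between their deviations from the group means. Alternatives were DESeq2 1.42.0, its size factors or library totals, other filters, no fold threshold, a block and leaving out each library.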

Additional observations from a re-analysis of the deposited data

Results flagged for a closer look

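For the called genes, 76 sets of 4 libraries of a genotype and population were examined by Dixon's test at 95%. In 11 of them a value stood apart, where about 1 in 20 is the share by chance. A set with counts in 1 library alone is always flagged. This held for Magel2 in both genotypes, Snrpn in tKO and Rasgrf1 in control mice, all in immature mTEC, so the shares cannot be set against each other. Each set also spans both lines. Most of the genes concerned were scarce in that population. Airn was at 1.28 CPM in the highest control library of mature mTEC, and Peg12 at 0.217 CPM in the lowest tKO library. In immature mTEC the highest library held 2.09 CPM of Snrpn (tKO), 0.427 CPM (control) and 1.39 CPM (tKO) of Magel2, 5.56 CPM of Ascl2 (tKO) and 0.407 CPM of Rasgrf1 (control). Zdbf2 was at 7.13 CPM in the highest tKO library of immature mTEC.

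Nnat, a gene of neurons and endocrine cells, stood apart in 3 groups. The libraries concerned held 28.4 CPM (highest, tKO mature), 13.2 CPM (highest, control immature) and 4.87 CPM (lowest, tKO immature).

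The change of H19 with maturation differed between the Rbfox1 and Rbfox2 lines by 3.04 on the log2 scale (edgeR adjusted p = 5.92e-07). H19 was lower in immature mTEC in 4 of 4 mice of the Rbfox1 line. The summed fibroblast and mesenchyme markers differed between the same libraries, and their part was not tested.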

How the results depend on the processing

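The numbers of members called were within 1.5 times those reported under DESeq2, its size factors, library totals, sex as a covariate, 1 fit of all libraries, or a block, except as follows. Requiring 10 counts in every library, which drops the genes scarce in immature mTEC, gave 6 called for maturation in control and 5 in tKO mice, 7 and 5 within the Rbfox1 and Rbfox2 lines (Slc22a18 was gained in tKO mice and within the Rbfox2 line, and Nnat within the Rbfox1 line), and 1 (H19) between lines in immature mTEC. Without the fold threshold 7 were called between lines in mature and 6 in immature mTEC. Without a filter 1 (Dlk1) was called for Rbfox2 tKO in immature mTEC. Leaving out 1 library gave 16 to 18 for maturation in control and 15 to 18 in tKO mice, 15 to 18 and 15 to 19 within the Rbfox1 and Rbfox2 lines, 0 to 1 between lines in mature mTEC, 1 to 2 in immature mTEC (1 without Rbfox2 control immature replicate 1 or Rbfox2 tKO immature replicate 2), and 1 to 2 for the difference of maturation between lines (H19 and Nnat without Rbfox1 control immature replicate 3). With the mouse as a block 17 were called for maturation in control and 15 in tKO mice. Mice of a line that share a number, 1 tKO and 1 control, were of the same sex, and the study's methods name sex-matched littermates as controls. Whether a number marks a common litter or day is not given (correlations of deviations 0.0357 to 0.147). A block on the numbers, which also takes up sex within a line, called no member for tKO. Of 574 values for single genes 557 kept their direction and side of the threshold, 17 lost a call and none changed sign. A gene that an alternative's filter removed has no value there. DESeq2 lost the calls of Airn in control mice (adjusted p = 0.141), Peg12 in tKO mice (adjusted p = 0.153) and Ascl2 within the Rbfox1 line (adjusted p = 0.0892), and no filter that of Airn (adjusted p = 0.0713). By the longest transcript the level per kilobase moved for Gnas (83.6 in mature and 221.8 in immature mTEC), Plagl1 (35.0 in mature mTEC) and Grb10 (20.9 in immature mTEC). The causes were not tested. Depth limits the genes with under 10 counts in every library, 11 in mature and 18 in immature mTEC.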
